A study of Mus musculus with 4 samples.

Results

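The comparison described here is that of livers from mice treated with the liver carcinogen diethylnitrosamine (DEN) against livers of mice without DEN, both on a diet with 0.2% cholic acid (CA). It uses 2 of the 4 arrays of the study, and its members are all 18194 genes that the array names. The other 2 arrays held the same pair of conditions on the control diet and are used below for side by side values. All livers were taken at 10 months of age, and per the labels the DEN mice received the carcinogen before the diet. Each array held RNA pooled from 3 to 5 mice. There was thus 1 array per group, no test was possible, and variation between mice could not be told apart from the effect of DEN. Strain, sex, dose and timing of DEN, duration of the diet, time of day at collection and tumour content of the livers are not stated in the sources used here.

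DEN is converted by cytochromes of pericentral hepatocytes to an agent that alkylates DNA, and in mice it gives rise to liver tumours months later. CA is a primary bile acid made from cholesterol. When bile acids accumulate, the nuclear receptor FXR and its target SHP (gene symbol Nr0b2) repress bile acid synthesis, and dietary CA also increases the uptake of cholesterol from the gut.

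Values are log2 expression levels, on which a difference of 1 is a change of 2-fold. In the text, 4 levels of a gene always stand in the order no DEN on the control diet, no DEN on the CA diet, DEN on the control diet, DEN on the CA diet, and a difference is DEN minus no DEN. The tissue label was checked with 24 hepatocyte genes, all of which were expressed, with a mean level of 12.1 on the array without DEN and 11.9 on the array with DEN on the CA diet. Alb, the albumin gene, read 14.75, 14.74, 14.79 and 14.82. The medians of the 4 arrays ranged from 4.84 to 4.86 over all probe sets. The 18 hybridization control probe sets of the array, which report spiked control RNA, differed by -0.06 to 0.37 between both CA diet arrays. The 27 poly-A control probe sets differed by -0.71 to 0.03, with a median of -0.18. In RNA of whole livers, fewer cells of a type and less RNA per cell cannot be told apart.

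Most genes stood at similar levels with and without DEN on the CA diet. A gene counted as expressed when its mean over the 4 arrays was at least 4.85, the median of all probe sets, and 11664 genes were. Of these, 9758 (83.7%) differed by less than 1.5-fold, the median difference was 0.0042 and the SD of the differences over genes was 0.60. The Pearson correlation of the levels on both arrays was 0.949 over these genes, which are not independent replicates. A gene is said to be past 2-fold upwards or downwards when its level with DEN was at least that much above or below its level without. With DEN 554 genes (4.75% of those expressed) were past 2-fold upwards and 204 (1.75%) downwards. At 4-fold the counts were 132 against 19 genes, at 8-fold 66 against 6 and at 16-fold 32 against 1. With levels under 4.85 raised to that value they were 114 against 17, 49 against 5 and 19 against 1. Of the 554 higher genes, 131 were under 4.85 on the array without DEN. A gene that counted as expressed only through its DEN arrays had to differ, and the fold of a gene under 4.85 is a lower bound. When each array was centred on its median over expressed genes, the counts were 491 higher and 247 lower.

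**Figure D1:**
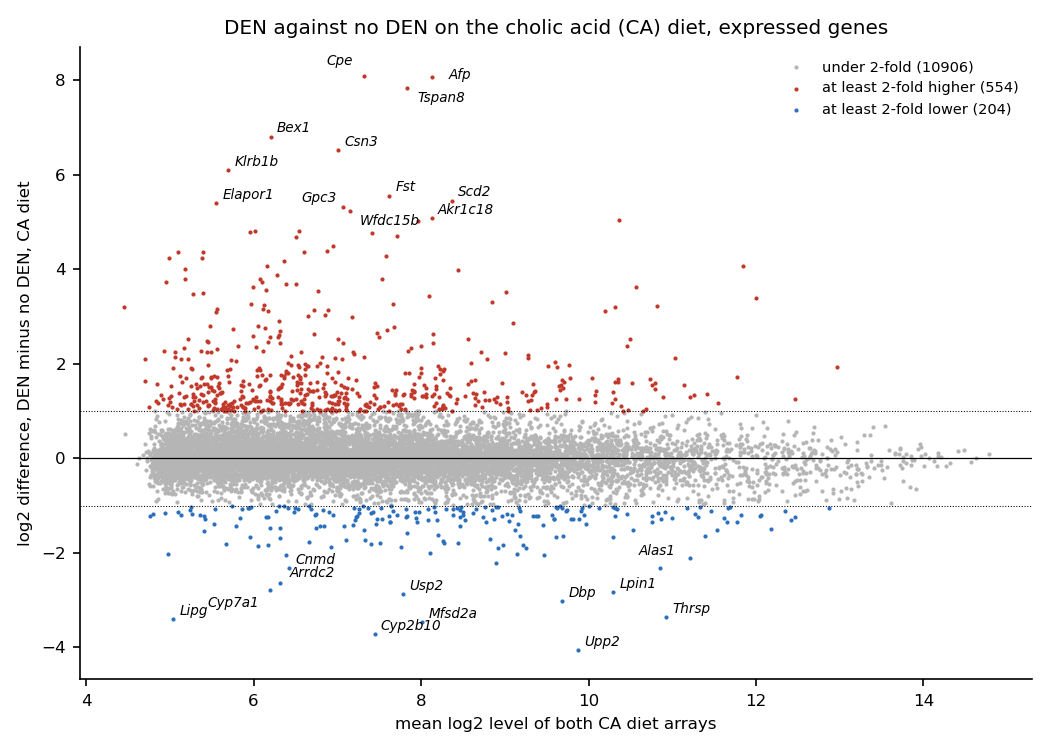
Difference between DEN and no DEN on the CA diet (y axis, log2) against the mean log2 level of both CA diet arrays (x axis), 1 point for each of 11664 expressed genes. Red marks the 554 genes at least 2-fold higher and blue the 204 at least 2-fold lower; the named genes are the 12 with the largest difference each way, and the largest differences upwards reach 8.09 and downwards -4.06.

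The genes with the largest differences included those of secreted and surface proteins, several of which are known as oncofetal or tumour markers of the liver. Cpe, carboxypeptidase E, which trims peptide hormones, read 3.22, 3.27, 11.06 and 11.36. It was at least 91.0-fold higher with DEN on the CA diet, while its other probe set differed by -0.41. Afp, the fetal serum protein alpha-fetoprotein and a clinical marker of liver cancer, read 4.77, 4.10, 12.65 and 12.17 and was at least 159-fold higher. Of its 5 probe sets the lowest differed by 0.04. Both DEN arrays lay far above both arrays without DEN for these genes, which were under or near the background level there. Tspan8, a tetraspanin of epithelial cells, read 3.69, 3.92, 11.38 and 11.75 and was at least 119-fold higher, with 0.95 on the lowest of its 5 probe sets. Gpc3, an oncofetal glypican of the cell surface, read 4.14, 4.41, 9.80 and 9.73 and was at least 29.5-fold higher.

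The other genes of this leading group repeated the same pattern of 2 low and 2 high arrays. Bex1, a small adaptor protein known from neurons, read 2.99, 2.80, 10.37 and 9.60. Csn3, the milk protein kappa-casein, read 4.09, 3.74, 8.27 and 10.27 and was at least 42.7-fold higher, with a second probe set at 0.55. Klrb1b, a lectin-like receptor known from natural killer cells, read 2.69, 2.65, 8.61 and 8.74, and all 5 of its probe sets differed by at least 3.99. Fst, follistatin, a secreted inhibitor of activins, read 4.97, 4.84, 10.07 and 10.39 and was at least 46.6-fold higher. Scd2, a fatty acid desaturase, was expressed without DEN and gave a measured fold of 43.7, with levels of 5.73, 5.64, 11.37 and 11.09 and a lowest probe set at 0.98. Akr1c18, an aldo-keto reductase that inactivates progesterone, was 33.7-fold higher, from 5.59 without DEN to 10.66 with DEN on the CA diet. Elapor1, a membrane protein of the endosome and lysosome system, and Wfdc15b, a small whey acidic protein relative, were at least 10.6-fold and 30.1-fold higher.

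**Figure D2:**
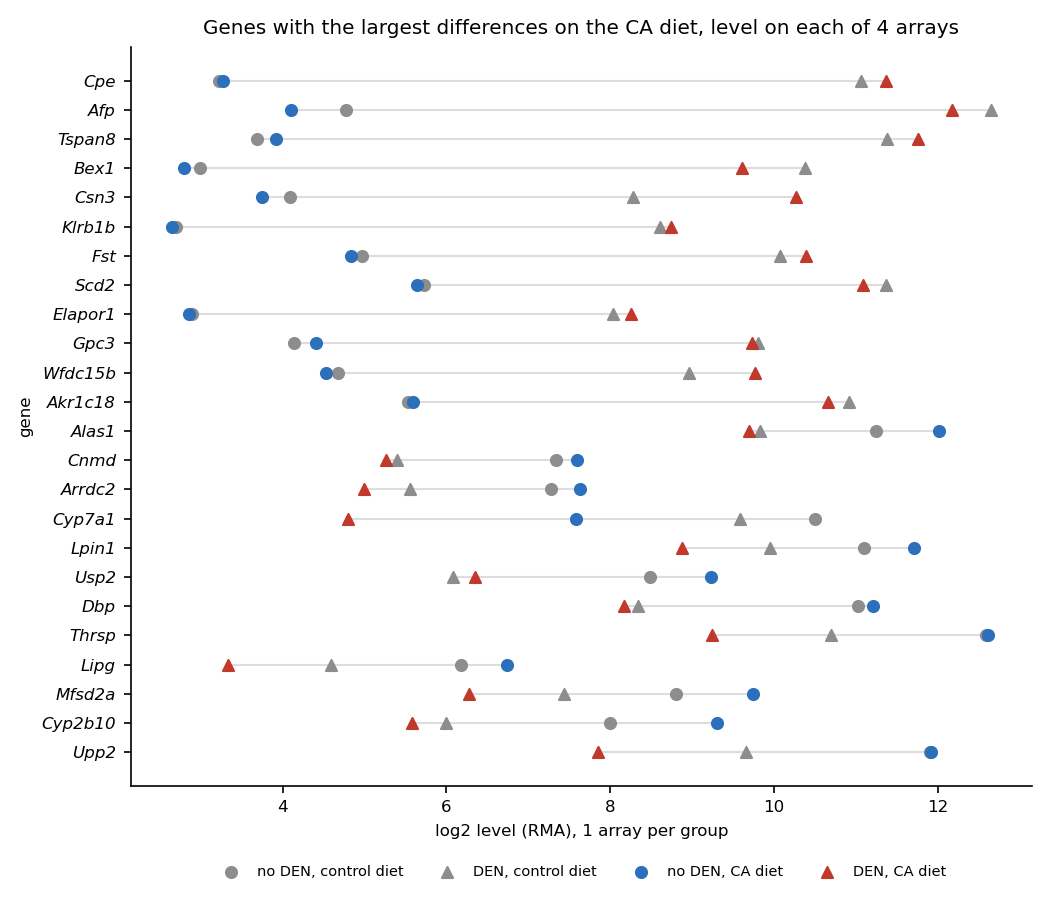
Level of the 12 genes most strongly higher and the 12 most strongly lower with DEN on the CA diet (rows) on each of the 4 arrays (x axis, log2 level, 1 array per group). Circles are arrays without DEN and triangles arrays with DEN, grey for the control diet and blue or red for the CA diet; in the upper 12 rows both triangles lie to the right of both circles, and in Cyp7a1 both CA diet points lie to the left of both control diet points.

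Of 29 expressed oncofetal and tumour markers of the liver, 19 were past 2-fold upwards with DEN on the CA diet and none downwards. The list was put together with earlier results of these data known, so its direction is no independent evidence. Its median difference was 2.78, or 1.75 over all 32 measured members, against 0.0042 over all expressed genes. Lcn2, lipocalin 2, an iron-sequestering protein of the acute phase, read 8.32, 7.85, 12.06 and 12.89 and was 32.9-fold higher. Prom1, the surface protein CD133 of progenitor cells, read 4.50, 5.04, 9.71 and 9.79. Spink1, a trypsin inhibitor, read 3.47, 4.27, 9.13 and 8.44. Further members were Ly6d (5.03), Tff3 (3.99), Anxa2 (3.30, with its lowest probe set at 0.13), Golm1 (3.26) and Sox4 (2.78, with its lowest of 8 probe sets at -0.57). Igf2, the fetal growth factor, differed by 0.24, between 4.97 and 5.21, and Epcam, an epithelial adhesion protein, by 0.11.

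Secreted regulators of growth were among the largest differences. Of 36 expressed growth factors, receptors and binding proteins, 7 were past 2-fold upwards and 1 downwards, with a median of 0.22. Inhbb, the beta B subunit of activins and inhibins, read 5.02, 5.36, 8.92 and 10.05 and was 25.8-fold higher, with its other probe set at 0.35. Igfbp1, a binding protein that restrains insulin-like growth factors, read 10.03, 9.80, 13.88 and 13.88 and was 16.8-fold higher. Activin subunit and activin inhibitor (Fst, above) were thus both high on the DEN arrays. Hbegf, a ligand of the epidermal growth factor receptor, read 6.07, 5.84, 6.38 and 7.30 and was 2.74-fold higher. The receptor gene Egfr differed by -0.88, with its 7 probe sets between -0.88 and 0.57. Angptl4, a secreted inhibitor of lipoprotein lipase, was 4.15-fold lower, with its other probe set at -0.84.

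Genes of cell division were higher in part, and so were 2 inhibitors of cell division. Of 35 expressed genes of replication and mitosis, 11 were past 2-fold upwards and 2 downwards, with a median of 0.71 (0.60 over 44 measured members). Mki67, a protein of dividing cells used as a proliferation marker, read 3.90, 5.32, 7.15 and 6.99 and was 3.19-fold higher on the CA diet. The DEN arrays lay close together, and the array without DEN was higher on the CA diet than on the control diet. The same order held for Ube2c, a ubiquitin carrier of the mitotic exit machinery (4.32, 5.85, 7.43 and 7.09), and Ccnb2, a mitotic cyclin (3.90, 5.05, 6.31 and 6.21). Top2a, a topoisomerase of dividing cells, read 4.06, 5.42, 6.79 and 6.62, with its lowest probe set at -0.02. Mcm2, a subunit of the replicative helicase, read 6.81, 5.99, 7.25 and 7.41 and was 2.67-fold higher on the CA diet. Ccne2, a cyclin of entry into S phase, read 4.78, 6.17, 4.40 and 4.64 and was at least 2.49-fold lower. Aurka, a mitotic kinase, read 4.12, 4.29, 6.02 and 5.54 and was at least 1.61-fold higher, with its other probe set at -0.091. Tk1, the thymidine kinase of S phase, was 2.18-fold lower. On the control diet 19 of the 35 genes were past 2-fold upwards and none downwards, with a median of 1.11, beside 5.12% and 0.900% of all expressed genes.

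Among 14 expressed G1 cyclins and inhibitors of cyclin-dependent kinases, 2 inhibitors were past 2-fold upwards and the list's median was 0.20. Cdkn2b, the kinase inhibitor p15, read 3.76, 4.17, 8.72 and 8.84 and was at least 15.8-fold higher. Cdkn1a, the kinase inhibitor p21 and a target of p53, read 5.72, 6.24, 8.26 and 8.39 and was 4.42-fold higher. Both inhibitors were at nearly equal levels on the 2 DEN arrays. The growth-promoting genes Ccnd1 (cyclin D1) and Myc differed by 0.39 and -0.05 on the CA diet. Ccnd1 stood at 7.20, 8.38, 8.91 and 8.77, so that the CA diet array without DEN was near the DEN arrays. Of 17 expressed p53 targets, 5 were past 2-fold upwards and none downwards (median 0.33). Besides Cdkn1a these were the antiproliferative gene Btg2 (2.85), Pmaip1 (1.91) and Phlda3 (1.45), which favour cell death, and the kinase gene Plk2 (1.09, with its lowest probe set at -0.21).

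Promoters of the replication and mitosis genes are shown because the DREAM and B-MYB complexes are known to act at their CHR element, often next to CCAAT boxes. Windows from 250 bases before to 50 bases after the start came from RefSeq on GRCm38.p6, which matched 28 of the 35 genes. The CHR letters TTTGAA, on either strand, were in the windows of 15 of these 28 genes and of 8 of the 11 matched genes at least 2-fold higher or lower. Over all 27025 genes with a window the share was 20.2%. CCAAT, on either strand, was in 22 of the 28 genes, against 41.1% of all genes. In the windows of Mki67 (chr7:135716330-135716629, minus strand), Mcm2 (chr6:88898731-88899030, minus strand) and Aurka (chr2:172370521-172370820, minus strand), capitals mark both motifs, and the start is base 251. A match is a description of letters and no evidence of binding.
Mki67: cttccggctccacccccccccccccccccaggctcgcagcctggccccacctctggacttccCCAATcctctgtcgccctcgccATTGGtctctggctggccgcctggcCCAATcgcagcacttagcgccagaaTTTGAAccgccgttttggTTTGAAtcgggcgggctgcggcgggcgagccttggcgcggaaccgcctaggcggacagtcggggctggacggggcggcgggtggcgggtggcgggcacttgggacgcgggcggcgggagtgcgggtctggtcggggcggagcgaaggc
Mcm2: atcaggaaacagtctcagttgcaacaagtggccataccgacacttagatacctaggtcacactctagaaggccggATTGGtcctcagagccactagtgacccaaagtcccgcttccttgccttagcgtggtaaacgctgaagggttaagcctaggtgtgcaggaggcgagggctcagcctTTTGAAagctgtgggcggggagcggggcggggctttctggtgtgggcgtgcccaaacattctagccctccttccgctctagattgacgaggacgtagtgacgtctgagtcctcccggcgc
Aurka: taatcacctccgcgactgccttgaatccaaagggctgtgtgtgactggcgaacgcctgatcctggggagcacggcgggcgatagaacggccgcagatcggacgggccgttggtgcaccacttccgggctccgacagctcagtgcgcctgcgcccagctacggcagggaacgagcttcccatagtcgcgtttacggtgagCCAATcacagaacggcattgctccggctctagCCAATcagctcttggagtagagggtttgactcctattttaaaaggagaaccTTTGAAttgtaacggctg

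Part of the genes of oxidative and amino acid stress were higher on the DEN arrays. Of 24 expressed targets of NRF2, the regulator of the antioxidant response, 9 were past 2-fold upwards and none downwards (median 0.64, or 0.50 over all 25 measured). Cbr3, a carbonyl reductase, read 4.98, 5.44, 8.92 and 9.73 and was 19.5-fold higher. Nqo1, a quinone reductase and a classical NRF2 target, read 5.71, 5.78, 7.16 and 7.74 and was 3.89-fold higher. Srxn1, sulfiredoxin, was 4.02-fold higher, with its lowest of 4 probe sets at 0.03. The letters TGACNNNGC of the antioxidant response element, on either strand, were in the windows of 7 of 19 matched members, against 14.0% of all genes. Of the 9 matched members at least 2-fold higher, 3 held these letters, and Cbr3 and Nqo1 were not among them. Of 20 expressed genes of ER stress and the amino acid response, 5 were past 2-fold upwards and 2 downwards (median 0.47). The higher ones included Psat1, of serine synthesis (2.76, 3.26, 7.23 and 7.50), and Asns, asparagine synthetase (7.27, 4.54, 9.07 and 7.69). Asns was lowest on the CA diet array without DEN, so that its difference was 3.15 on the CA diet and 1.80 on the control diet. Trib3, a pseudokinase induced by amino acid shortage, was 6.54-fold higher. Chac1, a glutathione-degrading enzyme of the same response, differed the other way (6.40, 7.51, 6.06 and 6.08) and was 2.70-fold lower. Herpud1, a component of ER-associated degradation, was 2.41-fold lower.

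Of 17 expressed immediate early genes, 8 were past 2-fold upwards with DEN on the CA diet and none downwards (median 0.71, or 0.44 over all 20 measured). Egr1, a zinc finger factor induced by growth signals, read 7.56, 9.23, 11.01 and 11.76. Jun differed by 1.13. Of the 17 genes, 12 had a difference above 0. Fos, which pairs with Jun in the AP-1 factor, read 5.19, 9.02, 7.34 and 8.44 and had the lowest difference of the list. Its level was highest on the CA diet array without DEN. Its difference was -0.58 on the CA diet and 2.15 on the control diet. Ier3 (2.47) and Klf4 (1.86) were also higher. The AP-1 letters TGANTCA were in the windows of 0 of 13 matched members, against 8.97% of all genes.

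Part of the inflammatory and interferon genes were higher with DEN, beside markers of immune cells. Of 26 expressed cytokines and NF-kB targets, 10 were past 2-fold upwards and none downwards (median 0.67, or 0.37 over all 36 measured). Ltb, lymphotoxin beta, read 4.95, 4.99, 6.92 and 8.54 and was 11.7-fold higher. Il1rn, the antagonist of the interleukin 1 receptor, read 5.23, 5.01, 6.90 and 7.57, with its lowest of 3 probe sets at 0.35. Cxcl9, an interferon-induced chemokine, read 6.62, 7.59, 9.60 and 9.85. Cxcl14, another chemokine, was at least 3.39-fold higher on the probe set used and differed by -0.10 on its other. Il1b, interleukin 1 beta, differed by 0.96, from 5.39 to 6.35. Il6 and Tnf, the interleukin 6 and tumour necrosis factor genes, were under 4.85 on every array. Of 30 expressed interferon response genes, 7 were past 2-fold upwards and none downwards (median 0.78), led by Oas1a, an antiviral synthetase, at 3.17-fold, and Ifi47, an interferon-induced GTPase, at 2.62-fold.

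Cell type markers on the same 2 arrays were as follows. Of 22 expressed markers of Kupffer cells and macrophages, 3 were past 2-fold upwards and 1 downwards, and their mean level was 7.59 without and 8.18 with DEN. Cd14, the lipopolysaccharide co-receptor, read 5.29, 5.63, 8.33 and 9.42, while Cd163, a scavenger receptor of resident macrophages, differed by -1.01. Of 9 expressed markers of dendritic cells and MHC class II, 4 were past 2-fold upwards (mean level 6.34 and 7.004), with H2-Aa at 8.36, 8.88, 10.40 and 10.40. Of 5 expressed T and NK cell markers among 21 measured, 1 was past 2-fold upwards, Cd3d (mean level of the 5 genes 5.36 and 5.67). Cd3d was under 4.85 without DEN on the CA diet, at 4.72, and was at least 1.97-fold higher. Cd8a (0.31) and Thy1 (0.41) were also above 0, while Cd3e (-0.26) and Cd4 (-0.02) were below. Of 7 expressed B and plasma cell markers none was past 2-fold upwards (mean level 6.82 and 7.35). The 3 expressed neutrophil markers were S100a8 and S100a9, subunits of calprotectin, which differed by 1.75 and 1.77, and Csf3r, which differed by 0.10. S100a8 was under 4.85 on both arrays without DEN and counted as expressed through the DEN arrays. Taken over the 11 measured neutrophil genes, the median was -0.12. The part of these cell types in the inflammatory differences was not tested.

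Markers of epithelial, mesenchymal and other cells were also read. Of 9 expressed cholangiocyte markers 5 were past 2-fold upwards (median 1.18, mean level 5.31 without and 7.02 with DEN), or 5 of all 14 measured with a median of 0.51. The 5 genes were Tspan8 (7.83), Anxa13 (1.72), Cldn7 (1.61), Sox9 (1.53) and Cd24a (1.18). The mean includes Tspan8, Anxa13 and Cldn7, which were under 4.85 on both arrays without DEN. These genes counted as expressed through the DEN arrays. The defining keratin gene Krt19 was under 4.85 on both CA diet arrays, at 4.53 and 4.83. Of 7 expressed markers of gallbladder and intestinal epithelium among 16 measured, 3 were past 2-fold upwards, and the median over all 16 was -0.07. The 3 genes were under 4.85 on both arrays without DEN, so that they counted as expressed through the DEN arrays. Vil1, villin of the brush border, read 4.41, 4.34, 5.92 and 7.61. Krt20, an intestinal keratin, read 3.29, 2.87, 6.31 and 7.11, and Cdh17, an intestinal cadherin, read 3.31, 3.18, 8.25 and 7.19. Of 18 expressed markers of stellate cells and fibroblasts 2 were past 2-fold upwards (mean level 7.15 and 7.50), Acta2 (2.15, with its lowest probe set at -0.24) and Col3a1 (1.22). Endothelial markers (2 of 18, mean level 6.96 and 7.35), adipocyte markers (1 of 3, Fabp4) and exocrine pancreas markers (0 of 3) made up the rest, together with 3 erythroid markers, of which Klf1 was 1.43 lower on the log2 scale. Among the adipocyte markers Car3 differed by -0.95 and Retn by -0.03, and the median was -0.03. Of 28 expressed genes of matrix and matrix remodelling, 7 were past 2-fold upwards and none downwards (median 0.33), with Col5a2, a fibrillar collagen chain, at 4.04-fold, Mmp12, a macrophage elastase, at 3.66-fold and Col4a1, a basement membrane collagen chain, at 3.51-fold. Col1a1, the main fibrillar collagen chain, differed by 0.51. The part of these cell types in the oncofetal and matrix differences was not tested.

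Acute phase proteins differed in both directions. Of 27 expressed members 4 were past 2-fold upwards and 3 downwards, with a median of 0.08. Apcs, serum amyloid P, read 11.06, 9.97, 12.12 and 12.10 and was 4.37-fold higher. Saa1 and Saa2, the serum amyloid A genes of the acute phase, read 12.74, 12.32, 10.04 and 10.97, and 11.54, 10.52, 8.50 and 9.24. They were 2.56-fold and 2.43-fold lower on the CA diet. They are close in sequence, and probes may not separate them. Hamp, the iron hormone hepcidin, was 2.54-fold lower. Of 15 expressed genes of iron and haem handling, 3 were past 2-fold downwards and none upwards (median 0.07). Besides Hamp and its close copy Hamp2, which probes may not separate, this was Alas1, the rate-limiting enzyme of haem synthesis in liver (11.24, 12.01, 9.83 and 9.69), which was 4.99-fold lower. The other probe set of Hamp2 differed by -0.21.

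Genes of bile acid synthesis and of bile acid uptake were among those lower with DEN on the CA diet, and on the control diet as well. Of 18 expressed genes of bile acid synthesis and conjugation, 3 were past 2-fold downwards and none upwards (median -0.50). On the control diet 3 of the 18 were past 2-fold downwards and 1 upwards (median -0.50). Cyp7a1, whose product sets the rate of bile acid synthesis, read 10.50, 7.59, 9.58 and 4.80. It was lowest on the DEN array of the CA diet, at the background level, and at least 6.66-fold lower there than without DEN. The other control enzyme, Cyp8b1, which directs synthesis towards CA, read 11.32, 4.55, 10.07 and 4.85, so that both CA diet arrays were at or under background and no fold could be given. Cyp7b1, of the alternative pathway, was 2.29-fold lower, and Akr1d1, a reductase of bile acid synthesis, 2.05-fold lower. Of 22 expressed genes of bile acid receptors, their targets and transport, 6 were past 2-fold downwards and 1 upwards (median -0.22). On the control diet 5 of the 22 were past 2-fold downwards and 2 upwards (median -0.09).

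The lower genes included carriers that take up bile acids and other anions from blood. Slc10a1, the sodium-dependent bile acid importer, read 12.40, 12.02, 11.42 and 10.90. Slco1a1 read 11.06, 11.13, 9.50 and 9.46, and Slco1a4 read 9.49, 9.17, 8.46 and 7.39. In each of the 3 genes both DEN arrays lay below both arrays without DEN. Slco2b1 (-1.28), Slco1b2 (-1.21) and Nr1i3 (-1.21), the receptor CAR that senses foreign compounds, completed the lower group. The highest of the 3 probe sets of Slco2b1 differed by -0.27. Abcc4, an exporter in the basolateral membrane that is also an NRF2 target, read 5.62, 5.45, 7.56 and 7.69 and was 4.73-fold higher. The FXR gene Nr1h4 differed by -0.91, its target Nr0b2 by -0.23 (8.22, 9.09, 8.53 and 8.86), and the bile salt export pump Abcb11 by -0.26.

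Part of the genes of cholesterol synthesis were higher with DEN on the CA diet. Of 20 expressed genes that make or take up cholesterol, 10 were past 2-fold upwards and none downwards (median 0.94). On the control diet 0 of the 20 were past 2-fold in either direction, with a median of -0.08. Sqle, squalene epoxidase, a rate-controlling step of the pathway, read 9.87, 4.69, 10.24 and 9.06. The array without DEN on the CA diet was the low one, and there Sqle was at least 18.5-fold below the DEN array. Cyp51, a sterol demethylase, read 10.11, 7.34, 10.37 and 9.18. Dhcr7, the last reductase of the pathway, read 9.55, 7.34, 10.17 and 9.11. In these 3 genes the DEN array of the CA diet lay between the low array and both control diet arrays.

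Further members were also lowest without DEN on the CA diet, with the DEN array of that diet next. Hmgcs1, the synthase that supplies the pathway, read 12.88, 10.00, 12.76 and 11.58 and was 2.99-fold higher. Fdps, farnesyl diphosphate synthase, read 11.14, 7.78, 11.11 and 9.35, with its other probe set at 0.25. Msmo1, a sterol oxidase, read 12.18, 8.51, 11.59 and 9.56. The remaining higher members were Nsdhl (1.27), Lss (1.20), Mvd (1.13) and Idi1 (1.01). The difference between both DEN effects on these genes has 1 array per group behind each level and was not tested.

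The promoter of Hmgcs1 is shown because SREBP2, the sterol-sensing factor, is known to act at sterol regulatory elements of this pathway. The letters TCACNCCAC, on either strand, were in the window of 1 of 16 matched members of the list, Hmgcs1, against 1.44% of all genes. In its window (chr13:119690101-119690400, plus strand, GRCm38.p6, RefSeq) capitals mark the match.
Hmgcs1: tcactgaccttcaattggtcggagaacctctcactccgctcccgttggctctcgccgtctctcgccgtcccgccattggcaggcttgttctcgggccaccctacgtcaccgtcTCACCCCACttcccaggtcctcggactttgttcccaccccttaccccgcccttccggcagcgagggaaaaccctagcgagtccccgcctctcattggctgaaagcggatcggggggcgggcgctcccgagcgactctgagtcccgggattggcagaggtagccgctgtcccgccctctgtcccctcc

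**Figure D3:**
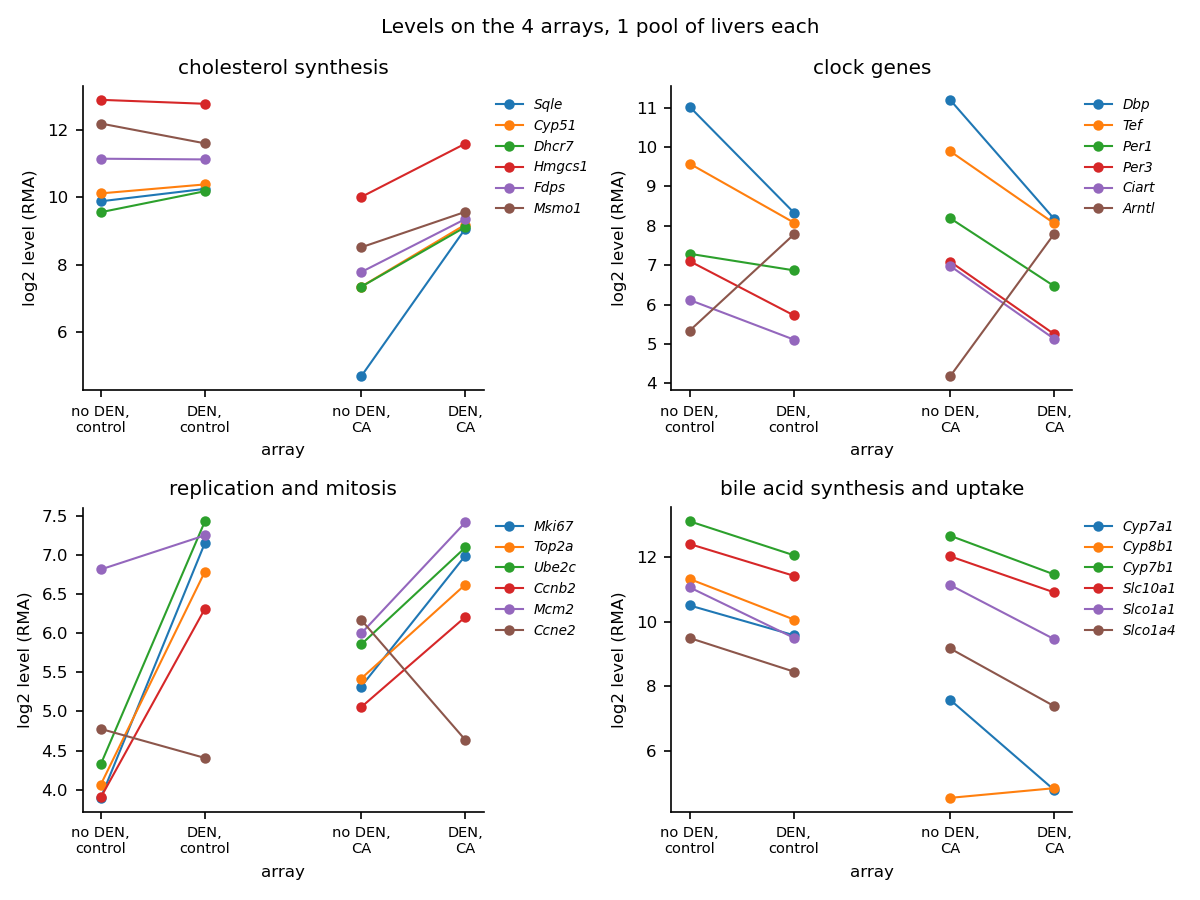
Log2 level (y axis) of single genes on the 4 arrays (x axis), 1 pool of livers each, for cholesterol synthesis, clock genes, replication and mitosis, and bile acid synthesis and uptake; lines join DEN and no DEN within a diet. Sqle stands at 4.69 without DEN on the CA diet and between 9.06 and 10.24 on the other 3 arrays, and Arntl goes the other way from the other clock genes shown.

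Other lipid genes were mixed. Of 21 expressed genes of fatty acid synthesis and desaturation, 5 were past 2-fold upwards and 1 downwards (median 0.14). The elongases Elovl5 (12.17, 10.91, 12.72 and 12.64), Elovl3 (10.59, 8.86, 11.05 and 10.50) and Elovl7 (1.89) were higher, as was Scd2 above. For Elovl5 and Elovl3 the array without DEN on the CA diet was again the lowest of the 4. Thrsp, a regulator of fatty acid synthesis in liver, read 12.58, 12.61, 10.70 and 9.24 and was 10.3-fold lower, with its 3 probe sets between -3.37 and -0.65. Of 20 expressed genes of lipid droplets and storage, 3 were past 2-fold upwards and 2 downwards (median -0.28). Lpl, lipoprotein lipase, which is low in adult hepatocytes, read 8.75, 9.21, 11.90 and 12.42 and was 9.31-fold higher. Lpin1, a phosphatidate phosphatase and coactivator, read 11.10, 11.71, 9.95 and 8.87 and was 7.15-fold lower. Of 20 expressed genes of fatty acid oxidation, 2 were past 2-fold upwards and 1 downwards (median -0.24): the pantetheinase Vnn1 (1.69) and the hormone Fgf21 (1.04) against their regulator Ppara (-1.21).

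Further strongly lower genes belonged to none of the lists above. Mfsd2a, a carrier of lysophosphatidylcholine with omega-3 fatty acids, read 8.80, 9.74, 7.44 and 6.28 and was 11.02-fold lower. Lipg, endothelial lipase, read 6.18, 6.74, 4.59 and 3.34 and was at least 3.70-fold lower, with its highest probe set at 0.19. Arrdc2, an arrestin-domain protein, was 6.23-fold lower and Cnmd, chondromodulin, 5.03-fold lower.

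Clock genes made up the list with the lowest median. Of 22 expressed genes of the circadian clock and its direct output, 12 were past 2-fold downwards with DEN on the CA diet and 1 upwards, with a median of -1.04. On the control diet 7 were lower and 1 higher by that much (median -0.51). Upp2, a uridine phosphorylase of liver with a daily rhythm, read 11.91, 11.91, 9.66 and 7.85 and was 16.7-fold lower. Dbp, an output factor driven directly by the clock, read 11.02, 11.20, 8.34 and 8.17 and was 8.15-fold lower. Usp2, a rhythmic deubiquitinase, read 8.49, 9.23, 6.08 and 6.34 and was 7.36-fold lower. Both DEN arrays were below both other arrays in each of these 3 genes.

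Of the core clock, the 3 period genes were lower and the activator Arntl was higher on the DEN array, while the repressors Cry1 and Bhlhe41 differed by 0.31 and 0.09. Per1, a period repressor, read 7.29, 8.19, 6.87 and 6.47, Per2 read 7.26, 7.80, 6.14 and 6.36, and Per3 read 7.10, 7.09, 5.72 and 5.25. They were 3.31-fold, 2.71-fold and 3.59-fold lower on the CA diet. Ciart, a repressor of the activating complex, was 3.62-fold lower and Tef, a relative of Dbp, 3.57-fold lower. Arntl, the activator BMAL1, read 5.34, 4.18, 7.78 and 7.80 and was at least 7.71-fold higher, with its other probe set at 0.33. Its partner gene Clock differed by 0.88 and the paralogue Npas2, not among the expressed genes, by 2.75 from 3.02 to 5.77. The labels name no hour of collection for any pool, and the part of time of day in these differences was not tested.

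Promoters of 3 lower clock genes are shown because BMAL1 and CLOCK are known to bind E-boxes. The E-box letters CACGTG, which read the same on both strands, were in the windows of 5 of 19 matched members, Ciart, Tef, Per1, Bhlhe41 and Cry1, and of 3 of the 11 matched members at least 2-fold higher or lower. The share over all 27025 genes was 8.09%. The D-box letters TTATGTAA, on either strand, were in the window of 1 member, Per3, against 1.11% of all genes. In the windows of Ciart (chr3:95882179-95882478, minus strand), Tef (chr15:81802423-81802722, plus strand) and Per1 (chr11:69098699-69098998, plus strand) on GRCm38.p6, capitals mark the E-box, which occurs 3 times in that of Ciart. No match in the other windows says only that these letters are not there.
Ciart: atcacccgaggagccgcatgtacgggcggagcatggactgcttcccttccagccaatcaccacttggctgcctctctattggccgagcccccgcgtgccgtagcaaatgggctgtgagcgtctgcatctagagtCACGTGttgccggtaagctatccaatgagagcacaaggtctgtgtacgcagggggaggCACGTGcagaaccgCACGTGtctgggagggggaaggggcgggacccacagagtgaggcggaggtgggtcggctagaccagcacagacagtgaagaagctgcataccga
Tef: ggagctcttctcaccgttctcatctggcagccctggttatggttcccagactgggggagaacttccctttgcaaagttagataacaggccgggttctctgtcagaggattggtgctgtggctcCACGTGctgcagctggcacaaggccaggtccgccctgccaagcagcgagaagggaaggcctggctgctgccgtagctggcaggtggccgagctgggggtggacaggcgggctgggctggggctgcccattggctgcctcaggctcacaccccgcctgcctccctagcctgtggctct
Per1: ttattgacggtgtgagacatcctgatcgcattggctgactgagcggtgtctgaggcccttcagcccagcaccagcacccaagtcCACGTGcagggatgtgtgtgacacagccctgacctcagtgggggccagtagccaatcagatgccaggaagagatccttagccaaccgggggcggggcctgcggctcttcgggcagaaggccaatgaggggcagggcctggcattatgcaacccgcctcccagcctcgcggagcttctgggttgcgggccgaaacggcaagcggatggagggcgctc

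Genes of drug metabolism and of pericentral cells were past 2-fold downwards more often than upwards. Of 27 expressed phase I genes, 6 were past 2-fold downwards and 1 upwards (median -0.60). Cyp2b10, the classical CAR target among the cytochromes, read 7.99, 9.30, 5.99 and 5.59 and was 13.2-fold lower. Its relative Cyp2b9 read 4.87, 7.20, 8.85 and 8.56 and was 2.58-fold higher, and the third relative Cyp2b13 differed by 0.35. These genes are near-identical in parts, and probes may not separate them or relatives in the Cyp2c, Ugt2b and Slco1a families. Cyp2c54 was 4.29-fold lower and Cyp1a2 2.86-fold lower. Of 28 expressed phase II transferases, 3 were past 2-fold downwards and 1 upwards (median -0.22), with Ugt2b37 at 3.40-fold lower. Of 19 expressed pericentral genes that depend on WNT signals, 4 were past 2-fold downwards and none upwards (median -0.57), while Glul, glutamine synthetase of the innermost pericentral cells, differed by -0.35. Ctnnb1, the beta-catenin gene, differed by 0.49.

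Periportal and sex-biased genes were past 2-fold in both directions, and general hepatocyte genes only downwards. Of 16 expressed periportal and urea cycle genes, 2 were past 2-fold upwards and 3 downwards (median -0.50), with Asl, argininosuccinate lyase, at 2.26-fold lower and Cdh1, E-cadherin, at 2.69-fold higher. Among the 24 hepatocyte genes, 2 were past 2-fold downwards and none upwards (median -0.14). They were Tat, tyrosine aminotransferase (12.26, 12.22, 11.81 and 10.57), and Cebpb, a liver transcription factor (11.37, 11.36, 10.56 and 10.14). Hnf4a, the central regulator of hepatocyte genes, differed by -0.48. Of 14 expressed genes with higher levels in male than female liver, 4 were past 2-fold downwards and 1 upwards (median -0.67). Of 13 expressed genes with higher levels in female liver, 5 were past 2-fold upwards and 2 downwards (median 0.35). They included Abcd2, a peroxisomal fatty acid importer (4.86, 3.56, 8.28 and 8.35), and Cyp17a1, of steroid synthesis (2.68). The lowest of the 4 probe sets of Abcd2 differed by 0.17. Cyp2b10, Cyp2b9 and Prom1 are also in that list.

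Lists of household functions are given beside the 4.75% of all expressed genes past 2-fold upwards and the 1.75% downwards. Of 41 expressed genes of oxidative phosphorylation 0 were past 2-fold in either direction (median -0.24, with 2 above 0), and of 33 expressed cytosolic ribosomal protein genes 0 were (median 0.27, with 32 above 0). Of 22 expressed genes of glucose metabolism 1 was past 2-fold upwards and 1 downwards (median 0.01): Pfkp, a phosphofructokinase of fetal and tumour tissue (1.36, with its lowest probe set at -0.29), and Slc2a2, the glucose carrier of hepatocytes (-1.20). Among 21 expressed amino acid carriers 2 were past 2-fold upwards, Slc7a7 (1.75) and Slc1a4 (1.72), and 2 lower, Slc1a2 (-1.43) and Slc7a2 (-1.04). The highest of the 5 probe sets of Slc1a2 differed by -0.13.

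**Figure D4:**
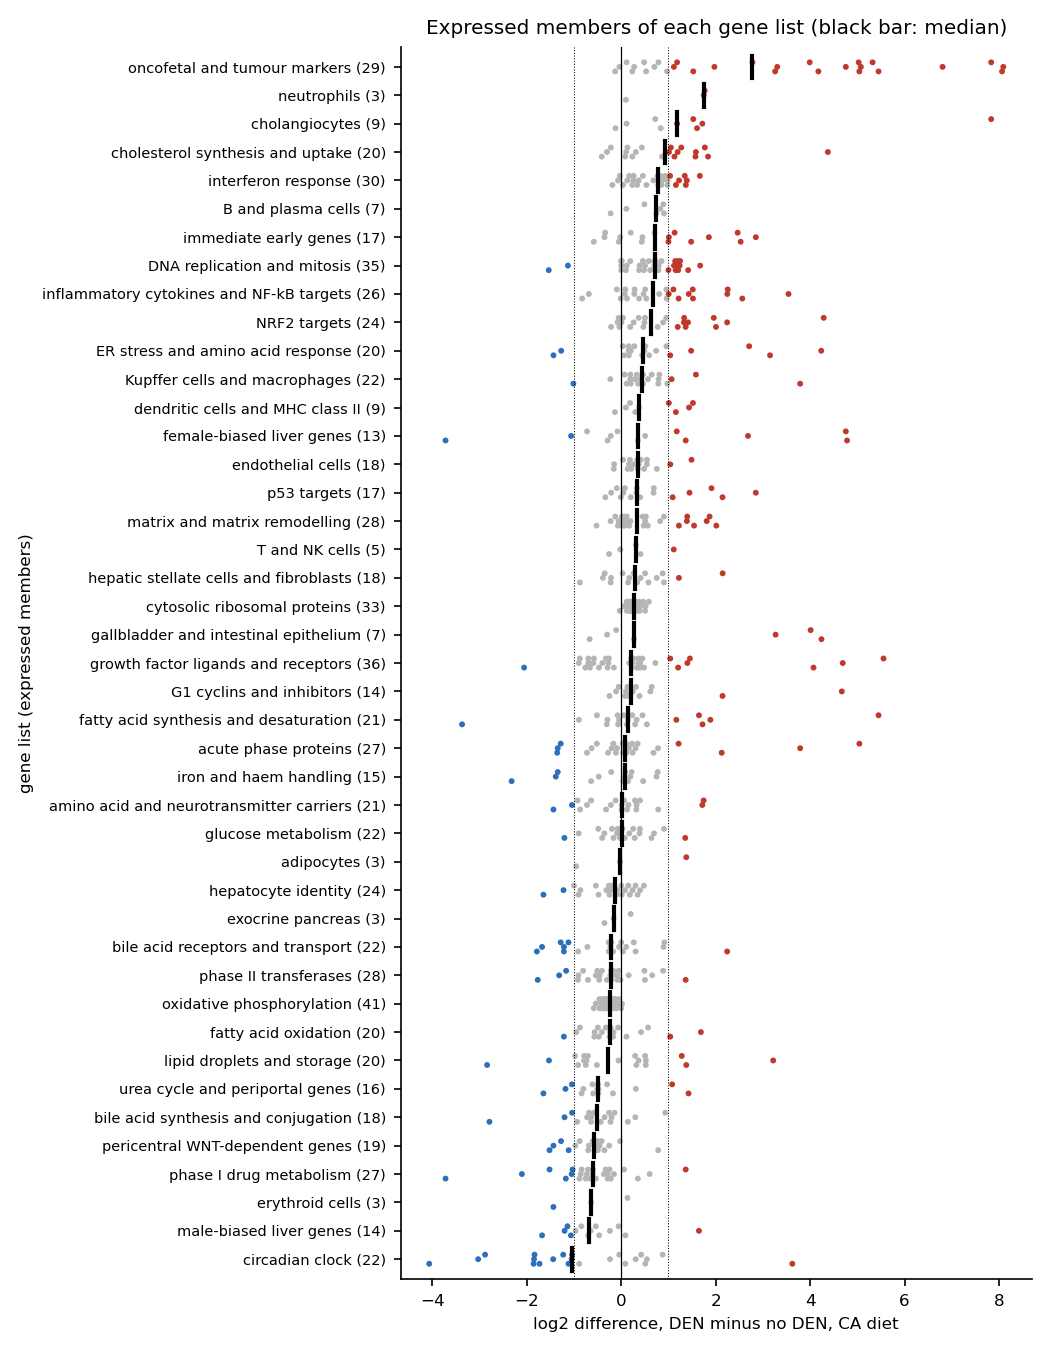
Log2 difference between DEN and no DEN on the CA diet (x axis) for every expressed member of each list (rows, number of members in brackets), with the median as a black bar and dotted lines at 2-fold. Red points are at least 2-fold higher and blue at least 2-fold lower; oncofetal and tumour markers have the highest median (2.78) and clock genes the lowest (-1.04).

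Most genes past 2-fold upwards on the CA diet were so on the control diet too, and both comparisons share no array. Of the 554 higher genes on the CA diet, 405 were also at least 2-fold higher on the control diet, which is 73.1% of the list of the CA diet and 67.8% of the 597 of the control diet. Both DEN arrays lay above both arrays without DEN for 539 of the 554, and for 34.3% of all expressed genes. Of the 204 lower genes, 82 were also at least 2-fold lower on the control diet, 40.2% of the list of the CA diet and 78.1% of the 105 of the control diet. Both DEN arrays lay below both others for 193 of the 204, and for 28.7% of all expressed genes. The 554 and the 204 genes were chosen by their difference between the CA diet arrays, which already fixes part of these orders. The shares of all expressed genes, which were not so chosen, are therefore no fair measure for them, and no conclusion is drawn. The expression filter and the choice of probe set also used the mean over all arrays of both diets. No gene at least 2-fold different on both diets had opposite signs. Over expressed genes both differences correlated at 0.862 (Pearson), across genes that are not independent replicates.

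Genes past 2-fold on the CA diet but not on the control diet mostly had the same sign there. The 149 such higher genes had a median difference of 0.78 on the control diet, and 141 had the same sign there. The 122 such lower genes had a median of -0.70 there, and 121 had the same sign. The signed DEN difference on the CA diet minus that on the control diet was 1 or more for 51 genes and -1 or less for 85, with an SD of 0.31 over genes. Each of these counts can hold genes that were higher with DEN and genes that were lower.

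Among the genes with a positive signed difference of effects were Sqle, described above, Moxd1, a monooxygenase relative, and Csn3. Levels under 4.85 enter some of these differences, so they are given in no order. Moxd1 read 8.95, 4.21, 8.49 and 6.68, so that it was low on both CA diet arrays and lowest without DEN. Fmn1, a formin, read 7.24, 4.37, 8.52 and 7.92, with differences of 3.55 on the CA diet and 1.28 on the control diet. Its other probe set differed by 0.47 on the CA diet. Wfdc12 (3.03 and 1.08) and Vil1 (3.27 and 1.51) were others. Orm2, an acute phase glycoprotein (10.67, 8.82, 8.06 and 8.54), and Saa2 had a positive value because their decrease with DEN was larger on the control diet. They differed by -0.28 and -1.28 on the CA diet against -2.60 and -3.04. In both genes the level without DEN was lower on the CA diet than on the control diet.

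The signed difference of effects was negative for Fos, Cyp2b9 and Ube2c, whose level without DEN was higher on the CA diet than on the control diet. Cdkn3, a mitotic phosphatase (3.81, 4.60, 6.22 and 5.19), differed by 0.59 and 2.41, and Tspan13, a tetraspanin (4.85, 5.15, 7.61 and 6.06), by 0.90 and 2.76. Mfsd2a (-3.46 and -1.36), Cyp7a1 (-2.79 and -0.92) and Upp2 (-4.06 and -2.25) also had a negative value, being further below their level without DEN on the CA diet. None of these differences of effects was tested.

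**Figure D5:**
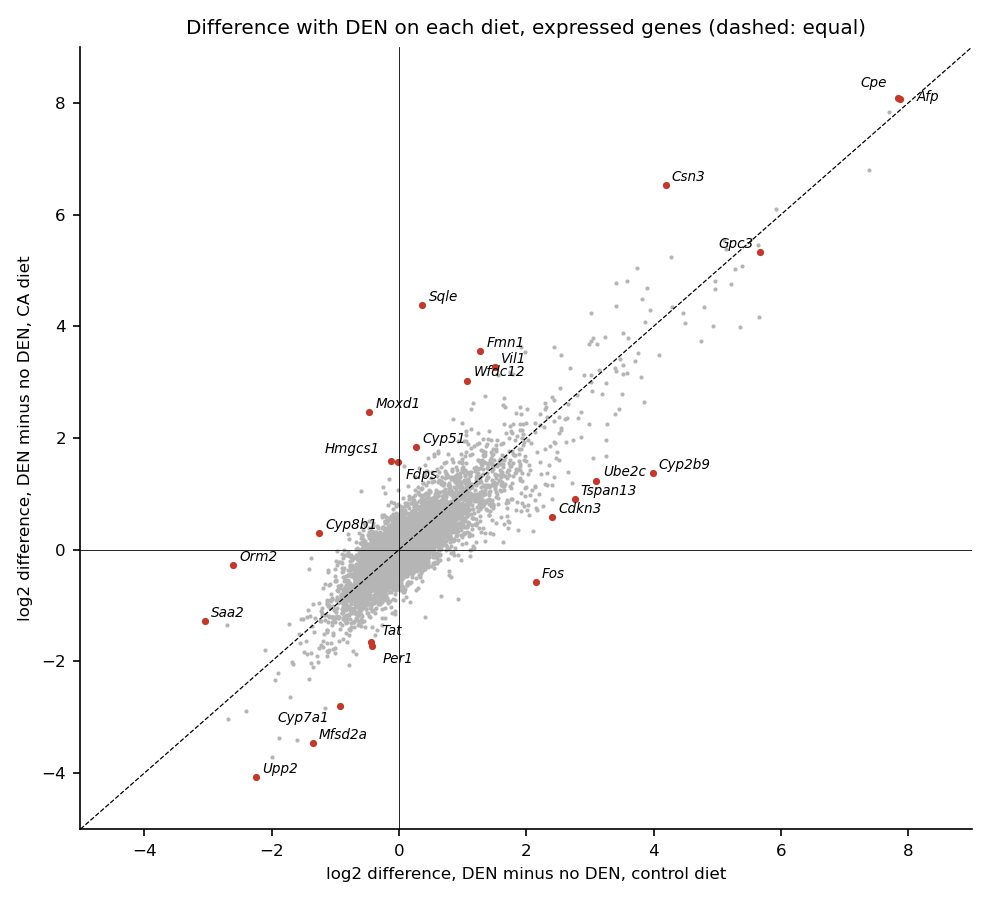
Log2 difference between DEN and no DEN on the CA diet (y axis) against that on the control diet (x axis) for 11664 expressed genes, with a dashed line where both are equal. Genes in red are named in the text; Afp and Gpc3 lie near the line, while Sqle (4.37 and 0.37) lies far above it and Fos (-0.58 and 2.15) far below.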

How the data were processed

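Liver RNA of 4 groups of mice was measured on 1 Affymetrix array each. The deposited values are log2 expression levels, for which the submitters' processing notes name RMA and Partek 6.5. RMA draws the distributions of arrays together and would take out a shift shared by most genes. Arrays give no count of molecules, and their number limits the precision.

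Of 45101 probe sets, 34958 had 1 gene symbol in the platform annotation, 932 several and 9211 were unlisted; 64 were controls. Gene identifiers of 34754 matched RefSeq (GRCm38.p6), with 0 symbols changed. Each gene was read from its brightest probe set by the mean of the 4 arrays, which favours probe sets high on the DEN arrays; 9012 of 18194 genes had several. Expressed genes had a mean no lower than 4.8513, the median of all values, to which a dim level was raised for "at least" folds. A gene was counted from 2-fold on. No test was made.

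Members and the 43 gene lists (31 pathway, 12 cell type) were chosen with earlier results of these data known; some lists share genes. The text names the 12 genes with the largest difference each way, the 8 with the largest difference of effects each way, up to 5 members of each list, and a set of further liver, tumour and inflammation genes. Other members past 2-fold, and some genes of the clock, cell cycle and cholesterol lists, were named after their values were seen.

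Alternatives were no expression filter, an upper quartile filter, a 1.5-fold threshold, quantile normalization, centring on the median, loess centring (fraction 0.3), the mean, lowest or highest of a gene's probe sets, and a floor on low values. A probe set chosen on the arrays without DEN, and counting only genes with every probe set past 2-fold, were added after the data were seen. Promoters were 300 bases long. The steps were tested on simulated data in Python 3.11.15 with numpy 2.4.6, pandas 2.3.3 and statsmodels 0.14.6.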

Additional observations from a re-analysis of the deposited data

Results flagged for a closer look

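Among the 229 genes of the naming rule, Fos and Moxd1 were at least 2-fold different on 1 diet and opposite in sign on the other. Each group had 1 array, and the difference was not tested. Opposite differences close to 0, as in Hmgcs1 (-0.12 on the control diet) and Fdps (-0.02), are not counted here. Msmo1, outside that rule, was also higher with DEN on the CA diet and lower on the control diet, as its levels above show. Fos differed by -0.58 on the CA diet and 2.15 on the control diet. Moxd1 differed by 2.47 on the CA diet, where it was under 4.85 without DEN, and by -0.46 on the control diet. Cyp8b1 differed by -1.25 on the control diet, while its 0.30 on the CA diet lies between levels at or under background and gives no direction.

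Probe sets that the annotation does not list carried differences too. Of 2464 unnamed probe sets with a mean above the expression limit, 70 were past 2-fold upwards and 53 downwards with DEN on the CA diet. The shares among expressed named genes were 4.75% upwards and 1.75% downwards. The highest had levels of 8.09, 6.93, 10.68 and 10.48, in the order used above, and a difference of 3.56. The lowest had levels of 9.23, 9.39, 7.63 and 7.18 and a difference of -2.21.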

How the results depend on the processing

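No paired analysis was possible because each group has 1 array. The 554 higher genes on the CA diet became 281 among genes at or above the upper quartile of level, 1206 at 1.5-fold and 338 when every probe set of a gene had to pass 2-fold; the 204 lower genes became 700 at 1.5-fold and 134 with every probe set. Genes higher on both diets (405) became 209 with the upper quartile and 910 at 1.5-fold, and those lower on both (82) became 352 at 1.5-fold. Other settings stayed within 1.5 times, with 401 to 638 higher and 159 to 247 lower. Of the higher genes 296 had several probe sets, 81 of them with a probe set on the other side of 0, and of the lower genes 105 and 8. Among the 229 genes of the naming rule, the sign turned for Cpe (-0.41) and Cxcl14 (-0.10) on the probe set chosen without DEN and on their lowest. It turned for Acta2 (-0.24), Aurka (-0.091), Pfkp (-0.29) and Plk2 (-0.21) on their lowest probe set, for Lipg (0.19) on its highest. Outside that rule it turned for Sox4 (-0.57) and Top2a (-0.02) on their lowest probe set, and for the neutrophil list (-0.12) with no expression filter, which adds members under background. The cause of the disagreement of probe sets was not tested. Quantile normalization, loess and median centring moved none of the 229 genes by more than 0.37, the largest difference of a hybridization control. The mean over probe sets moved 46 of these genes and the floor 23 by more than that. Among 43 list medians, the upper quartile filter moved 6, the mean over probe sets 4 and no filter 3 beside the neutrophil list. Levels near background limit what small differences can show.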
